A study of Mus musculus with 6 samples.

Results

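The genes described here differed in the same direction between shMLL1 cells and shControl cells before and after osteogenic induction. C3H10T1/2 cells are mouse embryonic fibroblast-like cells with the properties of mesenchymal stem cells, able to become bone, fat, cartilage or muscle. shMLL1 cells carry a short hairpin RNA against Kmt2a, which encodes the histone methyltransferase MLL1, and shControl cells carry a control hairpin. shNFIB cells, with a hairpin against the transcription factor gene Nfib, were also sequenced. All are stable derivatives of C3H10T1/2, and whether a line is 1 clone or a mixed population is not given in the sources used here. Cells were harvested at confluence (day 0) or at day 7 in osteogenic medium. The additives were 0.1 µM dexamethasone, ascorbic acid 2-phosphate at 100 µg/ml, and 20 mM β-glycerophosphate. Each of the 6 conditions was represented by 1 RNA-seq library. The comparison set the 2 shMLL1 libraries against the 2 shControl libraries, with day as a term, over the 15797 of 55401 genes that had 20 or more counts in at least 1 of the 4 libraries.

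Of these 15797 genes, 8619 had a ratio on the same side of 0 at both days, 3764 higher and 4855 lower in shMLL1. A gene was described as stably different when its TMM-scaled count was at least 2-fold apart in the same direction at both days, 2-fold being the fold that the study used. This gave 745 genes, 396 higher and 349 lower in shMLL1 cells. A library at 0 was set to the floor of 3 counts, and the 356 genes with both lines at 3 counts or fewer at 1 day had no ratio there and could not be included. The ratios chose these genes, so their sizes are a description and carry no test.

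MLL1 belongs to the family of histone H3 lysine 4 methyltransferases that work in COMPASS complexes with shared subunits such as Wdr5, Rbbp5, Ash2l and Dpy30. Methylation of lysine 4 is found at the promoters of active genes, and MLL1 is known for keeping Hox genes active in development.

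The 4 libraries held between 21608680 and 32662704 counts, and TMM factors lay between 0.948 and 1.10. shMLL1 at day 7 was the shallowest. Counts from the mitochondrial chromosome made up 2.01% to 2.65% of a library at day 0 and 5.71% to 7.77% at day 7, in both lines. Of 12 mesenchymal stem cell markers, 11 passed the count minimum, with a summed level between 3952 and 8653 CPM (TMM-scaled counts per 1000000 counts), and Nt5e (CD73) was close to absent at 2 to 6 counts. Markers of haematopoietic, endothelial, epithelial and skeletal muscle cells were low next to the mesenchymal ones. The summed level of 6 haematopoietic markers was 9.13 to 32.7 CPM, with Adgre1 at 0 in all 4 libraries and Ptprc at 0 to 3 counts. For 5 endothelial markers it was 2.88 to 18.5 CPM, most of it Tek at day 0. For 5 epithelial markers it was 0.634 to 9.43 CPM, with Epcam and Krt18 at 0 in all 4, and for 4 skeletal muscle markers it was at most 0.162 CPM, with Ckm at 0. The 4 neural markers were not as low and summed to 44.8 to 116 CPM, most of it Map2 at 39.2 to 109.5 CPM. No marker tested from these 6 lists was stably different.

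The hairpin target was lower in shMLL1 cells at both days. Kmt2a (chromosome 9, 44803355 to 44881296, minus strand, GRCm38) was at 77.1 CPM in shControl against 31.9 CPM in shMLL1 at day 0, and at 68.4 and 35.9 CPM at day 7. Both shMLL1 libraries lay below both shControl libraries. The ratio was 2.42-fold at day 0 and 1.90-fold at day 7, so that Kmt2a itself stayed just outside the 2-fold rule. Over both days the log2 fold change was -1.10 (SE 0.28, adjusted p = 0.109, edgeR's quasi-likelihood test), short of the 5% false discovery rate. None of the 18 genes on a list of MLL family and COMPASS subunits was stably different, and their median log2 ratio was -0.36 at day 0 and 0.13 at day 7.

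Differences within the set were of similar size at both days for most genes. Among the higher genes the median log2 ratio was 2.01 at day 0 and 1.74 at day 7, and among the lower genes it was -2.17 and -1.77, against -0.05 and -0.04 over all genes tested. The rule asked for a 2-fold difference at both days, so medians away from 0 follow from it. In 240 of the 396 higher genes and 216 of the 349 lower genes the ratios of the 2 days were within 2-fold of each other. At least 4-fold differences at both days were found for 96 higher and 98 lower genes, and at least 8-fold differences for 34 higher and 27 lower genes. With counting error alone, the 95% interval of the ratio lay off 0 at both days for 317 higher and 309 lower genes. These intervals are exact binomial intervals of the share of counts and cover no difference between cultures. Nearest to the threshold and just inside it were Apobec1 and Arl4c among higher genes, with log2 ratios of 1.003 and 1.005 on the day with the smaller difference, and Enpp1 and Impact among lower genes at -1.002 and -1.001. Just outside were P2ry10b and Prps1 at 0.998 and 0.999, and Akap12 and Adamtsl3 at -0.995 and -0.992.

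**Figure D1:**
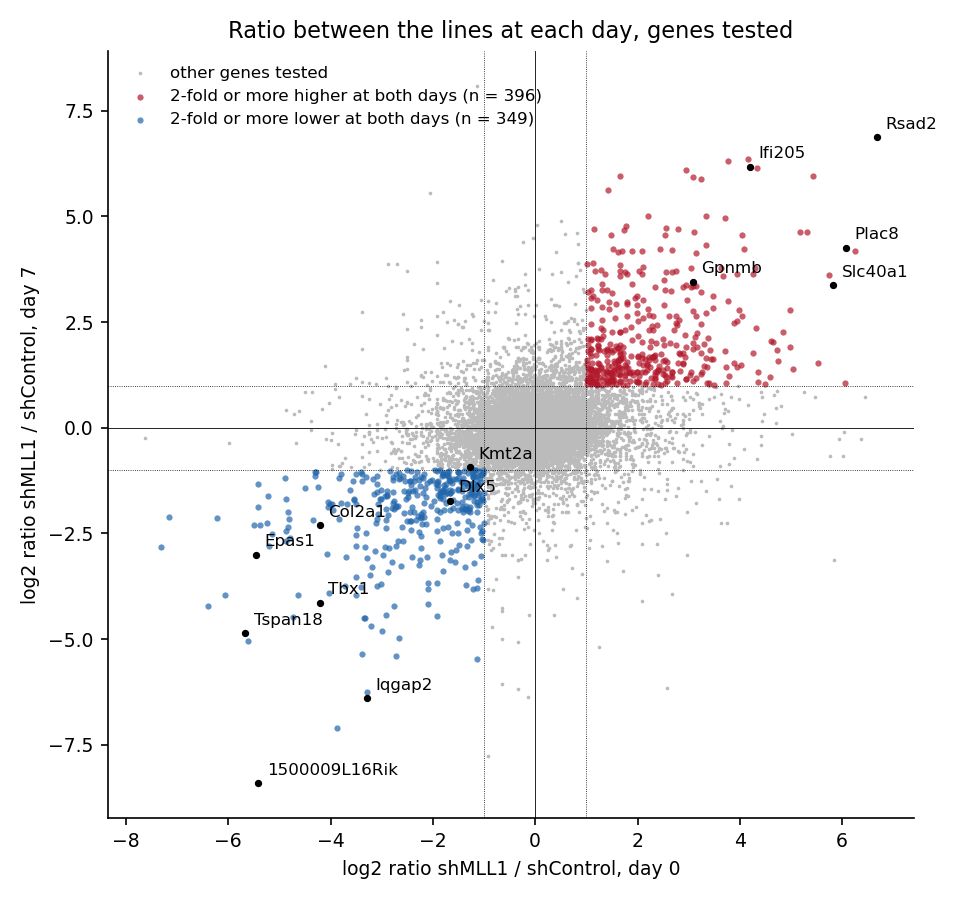
Each point is 1 gene tested with a ratio at both days, with the log2 ratio of shMLL1 to shControl at day 0 on the x axis and at day 7 on the y axis. Red and blue points are the 396 higher and 349 lower genes at least 2-fold apart at both days (dotted lines), and Rsad2 lies farthest out in the upper right.

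A test over both days treats the days as the only source of replication. With 4 libraries and day as a term there is 1 residual degree of freedom, and each line had 1 library per day. Any change of a difference with the day enters the error. edgeR's fit draws that error toward the error of the other genes tested, so it is not the gene's own spread alone. At an adjusted p under 0.05 by edgeR's quasi-likelihood test (Benjamini-Hochberg), 220 genes were called. Of these, 93 were higher in shMLL1 and 127 were lower. In 86 of the higher and 114 of the lower genes the lines were also at least 2-fold apart at both days. The background is small in every case, since 0.589% of all genes tested were called higher, 0.804% were called lower, 2.51% were stably higher and 2.21% were stably lower. The rule used the same contrast, so these shares say nothing further about the 745 genes. The same shares are the background for the counts of genes in lists and families below. Of the 20 genes called outside the set, 14 had both lines at the floor at 1 day, among them Cfd, Plin1, Cidec and Retn.

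How many genes were called depended strongly on the fit. With all 6 libraries in the model the test called 5 genes, among them Tbx1, Tspan18 and Naalad2 lower and Gm2115 higher, and with counts thinned to the smallest library it called 17. DESeq2's test called 360. A call below therefore means the 4-library fit with day as a term.

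**Figure D2:**
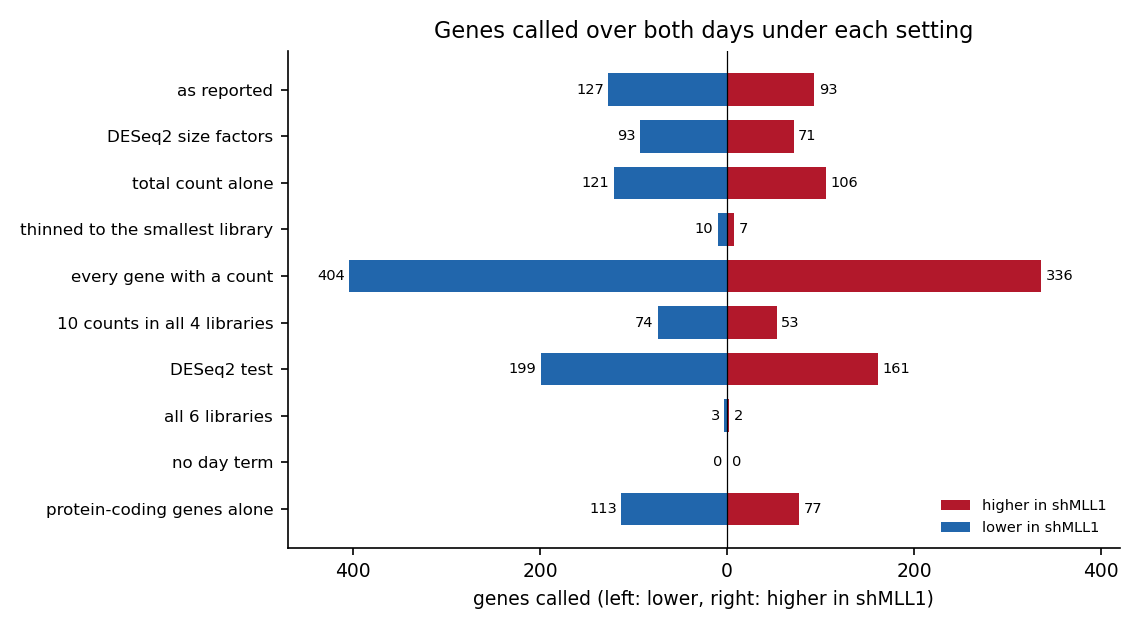
Bars give the number of genes called higher (red, right) and lower (blue, left) in shMLL1 over both days at an adjusted p under 0.05 in each setting. The fit reported in the text called 93 and 127 genes, and the fit with all 6 libraries called 2 and 3.

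Several developmental transcription factors were lower in shMLL1 cells at both days. Tbx1, a T-box factor of pharyngeal and mesodermal development (chromosome 16, 18580979 to 18590671), was at 18.9 CPM in shControl against 1.03 CPM in shMLL1 at day 0, and at 49.2 and 2.79 CPM at day 7. The lines did not overlap, and the ratio was 18.4-fold and 17.6-fold. Tbx1 fell by 4.17 on the log2 scale over both days (SE 0.33, adjusted p = 0.00119). Epas1, which encodes the hypoxia-inducible factor HIF-2α, went from 84.1 to 1.91 CPM between the lines at day 0 and from 154 to 19.2 CPM at day 7 (log2 fold change -4.15, SE 0.55, adjusted p = 0.00931). Six2, a homeobox gene expressed in mesenchymal progenitors, was at 38.1 against 8.82 CPM and at 17.7 against 2.11 CPM (log2 fold change -2.56, SE 0.34, adjusted p = 0.00986). The osteogenic homeobox gene Dlx5 was at 13.2 against 4.17 CPM at day 0 and at 54.2 against 16.4 CPM at day 7. Its ratio was almost the same at both days, 3.16-fold and 3.30-fold lower, although its level was higher at day 7 than at day 0 in both lines (log2 fold change -1.69, SE 0.28, adjusted p = 0.0201).

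Further regulators of this kind were picked out after their values were seen. The Iroquois homeobox genes Irx1 and Irx2 on chromosome 13 both fell by 1.60 on the log2 scale (adjusted p = 0.0305 and 0.0216), whereas Irx3 and Irx5 on chromosome 8 were not in the set. Meox2, a homeobox gene of the somites, had 74 and 85 counts in shControl and 7 and 3 in shMLL1. Erg, an ETS factor, had 193 and 35 counts against 23 and 1. Gsc (goosecoid) was at 6.91 against 1.47 CPM and 5.72 against 1.40 CPM, and Tox, an HMG-box gene, at 49.0 against 7.18 CPM and 37.9 against 11.1 CPM. All of Meox2, Erg, Gsc and Tox were called lower, with adjusted p between 0.0120 for Tox and 0.0487 for Gsc. Gata2 (24.3 against 7.93 and 23.3 against 10.1 CPM) had the same direction without passing the test (adjusted p = 0.0545).

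On a list of 26 tested homeobox and limb patterning factors outside the Hox clusters, 2 were stably lower and called, Dlx5 and Six2, and 15 had a ratio below 0 at both days against 1 above it. Of all 15797 genes tested, 2.21% were stably lower, 4855 lay below 0 at both days and 3764 above it. The list median was -0.85 at day 0 and -0.18 at day 7. Of 39 Hox genes 9 passed the count minimum, all in the HoxA cluster, and none was stably different. Hoxa2 came nearest, with log2 ratios of -0.92 and -0.97, while Hoxa9 had 0.77 and 0.75. Of the other osteogenic regulators the study follows, Runx2 had log2 ratios of -0.03 at day 0 and -1.73 at day 7 and so was outside the set, and Sp7 and Msx2 stayed below 20 counts in all 4 libraries.

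Several receptor genes were lower at both days. Pth1r, the parathyroid hormone receptor of osteoblasts and chondrocytes, was at 7.98 against 0.991 CPM at day 0 and 12.1 against 0.930 CPM at day 7. Both shMLL1 values were below 1 CPM, and the gene was called lower (log2 fold change -3.34, SE 0.43, adjusted p = 0.00931). Ntrk3, which encodes the neurotrophin receptor TrkC, was at 10.4 against 1.37 CPM and 13.2 against 1.86 CPM. Fgfr3, an FGF receptor of cartilage, was 5.36 against 1.20 CPM and 13.4 against 3.09 CPM, close to 4-fold at either day. Fgfr2 was more uneven, with 13.9 against 0.615 CPM at day 0 and 36.7 against 13.7 CPM at day 7, and was not called (adjusted p = 0.0694). Ret, the GDNF receptor kinase, was at 7.01 against 0.239 CPM at day 0 and at 12 counts against 0 at day 7. With the 0 set to the floor of 3 counts Ret was 3.2-fold lower at day 7, and the counting interval reached log2 -1.15. Cntfr, the ciliary neurotrophic factor receptor, chosen after its values were seen, had 20 and 710 counts in shControl and 0 and 18 in shMLL1.

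Tspan18, a membrane protein gene, had the smallest unadjusted p of all genes tested in the 4-library fit. This tetraspanin (chromosome 2, 93201760 to 93334505) was at 8.66 against 0.171 CPM at day 0 and at 40.4 against 1.40 CPM at day 7. Both lines had more of it at day 7, and both shMLL1 values lay below both shControl values. It fell by 5.12 on the log2 scale (SE 0.40, adjusted p = 0.00119). Perp, a p53-induced membrane protein of desmosomes, had 469 and 82 counts in shControl and 9 and 2 in shMLL1, a ratio of 49.2 at day 0 and, with a wide counting interval of log2 3.14 to 8.11, of 32.8 at day 7. Naalad2, a peptidase of the glutamate carboxypeptidase family, had nearly the same level at both days in each line, with 75.4 and 73.7 CPM in shControl and 11.5 and 10.5 CPM in shMLL1 (log2 fold change -2.76, SE 0.28, adjusted p = 0.00302).

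Other lower genes had 10 or more counts in all 4 libraries. Papss2, which makes the sulphate donor used for matrix proteoglycans, was at 48.6 against 6.19 CPM and 9.14 against 1.14 CPM, 3.0 log2 units apart at both days. Iqgap2, a scaffold of the actin cytoskeleton, differed more at day 7 (121 against 1.44 CPM) than at day 0 (5.01 against 0.513 CPM). The actin-binding gene Nebl, the GTPase-activating protein gene Stard8 and Kank4 were called as well, with log2 fold changes of -3.52, -3.13 and -3.10. Tnmd, a marker of tendon cells, was at 15.8 against 1.57 CPM and 3.86 against 0.550 CPM. Fzd9, a Wnt receptor, was at 12.4 against 0.444 CPM and 5.18 against 0.846 CPM.

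**Figure D3:**
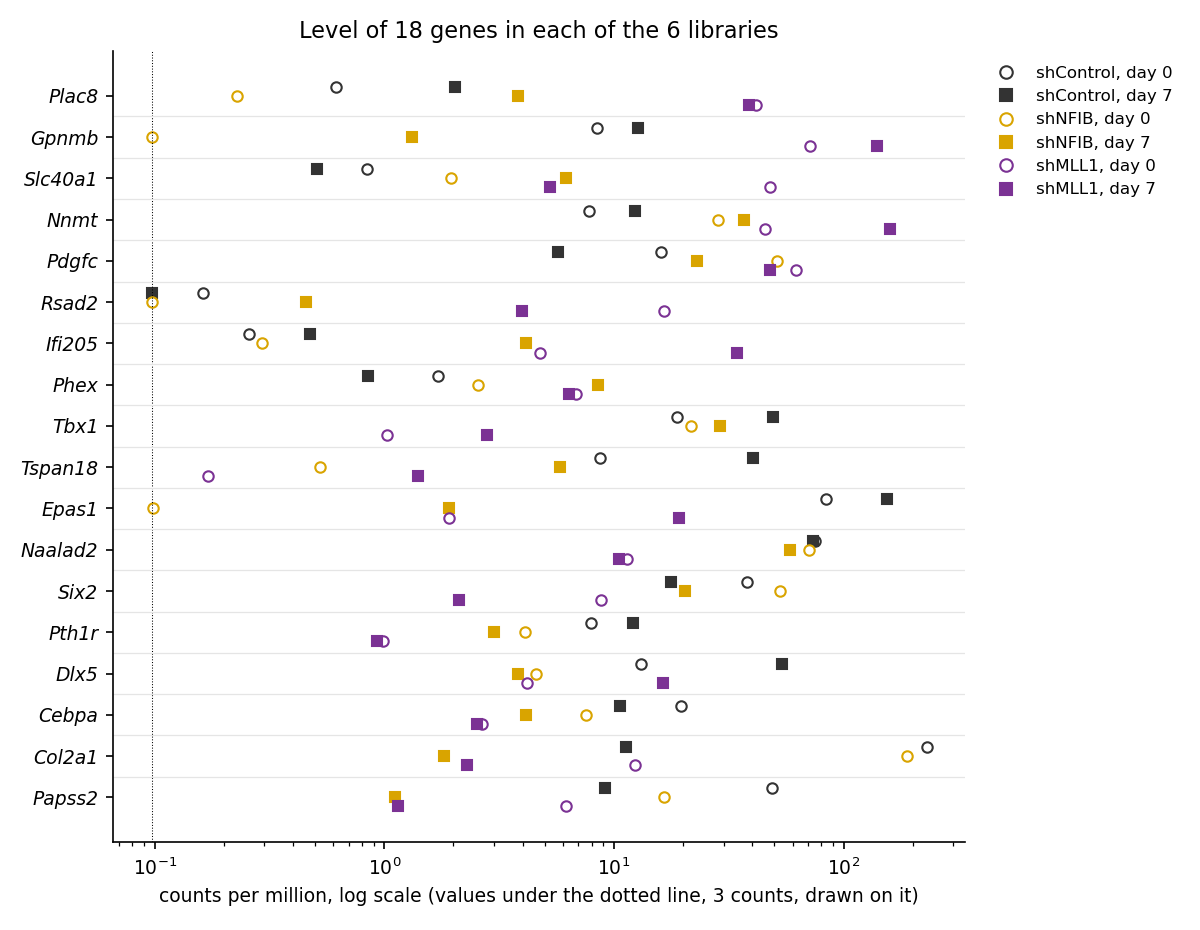
Points give the level of 18 genes, one per row, in the 6 libraries in CPM on a log axis, with open circles for day 0 and filled squares for day 7. For the 8 upper genes both shMLL1 points (purple) lie to the right of both shControl points (black), and for the 10 lower genes the shMLL1 point of a day lies to the left of the shControl point of that day.

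The Wnt pathway list had 6 stably lower and no stably higher gene among 26 tested, 23.1% against 2.21% of all genes. Of these 6, only Rspo3 was called. Rspo3, a secreted amplifier of Wnt signalling, was at 126 against 18.7 CPM and 32.7 against 9.81 CPM (log2 fold change -2.25, SE 0.33, adjusted p = 0.0127). The others were the receptor gene Fzd8, the ligand Wnt5b, the secreted antagonists Frzb and Sfrp2 and the intracellular antagonist Nkd1, so that both activators and inhibitors of the pathway were among the lower genes. Sfrp2 went from 22.03 to 0.513 CPM between the lines at day 0 and from 4.50 to 1.23 CPM at day 7 (adjusted p = 0.0552). The median of the 26 was -0.67 at day 0 and -0.42 at day 7. The list does not hold every gene of the pathway. Outside it, the receptor gene Fzd9 was stably lower and the inhibitor gene Apcdd1 stably higher, and both were called.

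In the BMP and TGF-β pathway, 2 of 29 tested genes were stably higher and 4 stably lower. These were 6.90% and 13.8%, against 2.51% and 2.21% of all genes. Ltbp2, a matrix protein related to the latent TGF-β binding proteins, was at 592 against 122 CPM and 454 against 47.9 CPM and was called lower (log2 fold change -2.76, adjusted p = 0.0102). Smad6, an inhibitor of BMP signalling, was at 23.1 against 5.98 CPM and 18.2 against 7.23 CPM and was also called (adjusted p = 0.0371). Id4, a BMP target, and the BMP antagonist Chrdl1 were lower without a call. Id4 had 40 and 6 counts in shControl and 1 and 1 in shMLL1, and Chrdl1 had 13 and 85 against 4 and 24. Their counting intervals included 0 at day 7 for Id4 and at day 0 for Chrdl1. The BMP antagonist Grem1 was higher, 116 against 478 CPM at day 0 and 30.6 against 65.4 CPM at day 7 (adjusted p = 0.0621), as was the activin subunit gene Inhbb. Inhbb had 76 and 7 counts in shControl and 207 and 13 in shMLL1, and its counting interval included 0 at day 7. The list median was -0.60 at day 0 and -0.23 at day 7.

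Of the lineage genes, osteoblast genes had 4 stably lower members and 1 stably higher member among 13 tested. These were 30.8% and 7.69%, against 2.21% and 2.51% of all genes. Dlx5 and Pth1r are given above. Alpl, the tissue-nonspecific alkaline phosphatase of mineralising cells, had 7 and 111 counts in shControl and 0 and 2 in shMLL1. Its shControl level at day 0 was too low for a close ratio. With the 0 set to the floor of 3 counts Alpl was 2.2-fold lower at day 0, and the counting interval reached log2 -0.45. The adjusted p for Alpl was 0.0344. Enpp1, the enzyme that makes the mineralisation inhibitor pyrophosphate, was at 8.01 against 4.0 CPM and 22.6 against 7.78 CPM (adjusted p = 0.121). Phex, a peptidase of bone cells that acts in phosphate balance, went the other way, with 1.71 against 6.84 CPM and 0.846 against 6.38 CPM (log2 fold change 2.43, SE 0.47, adjusted p = 0.0354). The list median was -0.38 at day 0 and -1.0 at day 7.

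Adipocyte genes were also on the lower side, with 4 of 21 tested stably lower and none stably higher, and list medians of -0.96 and -1.01. The stably lower share was 19.05%, against 2.21% of all genes. Cebpa, a master regulator of fat cell formation, was at 19.6 against 2.67 CPM at day 0 and 10.6 against 2.54 CPM at day 7 and was called (log2 fold change -2.48, SE 0.37, adjusted p = 0.0141). Pparg, its partner, was nearer to 2-fold, at 28.0 against 12.4 CPM and 43.3 against 21.5 CPM (adjusted p = 0.105). Dgat2, the last enzyme of triglyceride synthesis, was called lower (adjusted p = 0.0328), and the desaturase gene Scd1 was at 268 against 114 CPM and 147 against 71.3 CPM without a call. Lpl, lipoprotein lipase, was called but is no member, because it had 6 counts against 0 at day 0 and 1084 against 4 at day 7. In these bulk libraries fewer cells of a kind and less RNA per cell cannot be told apart.

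The same direction was found for most lipid enzymes of a group put together after the values were seen. Of 24 tested genes of fatty acid and triglyceride metabolism, 6 were stably lower (G0s2, Gpd1, Scd1, Elovl6, Mgll and Dgat2), none was stably higher, and 19 had a ratio below 0 at both days against 1 above it. Of all 15797 genes tested, 2.21% were stably lower, and 4855 lay below 0 at both days. The genes were picked with their values known, so these counts carry no test. The group does not hold every lipid gene. Outside it, the fatty acid transporter gene Slc27a1 was called higher, at 6.88 against 38.8 CPM and 19.2 against 82.0 CPM (adjusted p = 0.00792). The lipase gene Lipg was also stably higher. Of 24 genes of sterol synthesis and uptake, 23 lay below 0 at both days, with medians of -0.92 at day 0 and -0.40 at day 7, but only 3 reached 2-fold at both days. One of them, Idi1, the isopentenyl diphosphate isomerase, was at 138 against 58.5 CPM and 9.92 against 3.42 CPM and was called (adjusted p = 0.0496). The summed level of the 24 sterol genes was 4336 and 593 CPM in shControl and 2321 and 403 CPM in shMLL1 at day 0 and day 7.

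A few cartilage and matrix genes were lower at both days. Col2a1, the main collagen of cartilage, was at 230 against 12.4 CPM at day 0 and at 11.3 against 2.28 CPM at day 7 (log2 fold change -3.34, SE 0.46, adjusted p = 0.0102). Col9a1, which associates with it in cartilage fibrils, had 142 and 58 counts in shControl and 2 and 0 in shMLL1 (adjusted p = 0.00986). These were the 2 stably different genes among 10 tested chondrocyte genes, and Matn4, a matrilin picked out after its values were seen, had 29.7 against 0.718 CPM and 24.1 against 4.90 CPM. Of 25 collagens on a list of their own only Col8a2 was stably different, at 58.8 against 3.79 CPM and 27.8 against 7.23 CPM (adjusted p = 0.0162). This gene made up 4.0% of the list, near the 2.21% stably lower among all genes. The list median changed sign, -0.72 at day 0 and 0.33 at day 7.

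A pair of elastic fibre genes fell. Eln, which encodes elastin, was at 11.3 against 0.308 CPM and 21.4 against 3.09 CPM, and Mfap5, a microfibril protein, at 18.02 against 0.513 CPM and 26.9 against 4.74 CPM. Both were called (adjusted p = 0.0120 and 0.0160). Among the 37 tested proteoglycans and glycoproteins of the matrix, Fbln1 and Smoc1 were the other stably lower genes. The stably lower share of this list was 10.8% and the stably higher share 5.4%, against 2.21% and 2.51% of all genes. On the same list Thbs1 (thrombospondin 1) rose, from 41.6 to 94.5 CPM between the lines at day 0 and from 33.1 to 109 CPM at day 7 (adjusted p = 0.0420). Dcn, which encodes the proteoglycan decorin, was at 42.6 against 123 CPM at day 0 and at 57.6 against 1085 CPM at day 7, the most uneven ratio of these genes (adjusted p = 0.0587). Of 33 matrix proteases and inhibitors, Htra1, Mmp9 and Plau were stably higher and Adamts15 stably lower, and Plau, urokinase, was the 1 called (adjusted p = 0.0491). The stably lower share of 3.03% was near the 2.21% of all genes, and the stably higher share was 9.09% against 2.51%. None of 23 cadherins and adhesion genes was stably different.

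Among higher genes, several of the widest gaps were at genes with few counts in shControl cells. Plac8, a small cysteine-rich protein (chromosome 5, 100553725 to 100572245), was at 0.614 and 2.03 CPM in shControl and at 41.6 and 38.9 CPM in shMLL1, with no overlap. It rose by 5.08 on the log2 scale (SE 0.47, adjusted p = 0.00187). Gpnmb, a transmembrane glycoprotein also known as osteoactivin, was at 8.46 and 12.7 CPM in shControl and at 71.6 and 140 CPM in shMLL1 (log2 fold change 3.27, SE 0.30, adjusted p = 0.00187). Slc40a1, the iron exporter ferroportin, was higher 56.8-fold at day 0 and 10.4-fold at day 7. Nnmt, which methylates nicotinamide, was at 7.78 against 45.7 CPM and at 12.3 against 159 CPM. Gpr141, a receptor with no known ligand, had 25 and 1 counts in shControl and 941 and 20 in shMLL1 (adjusted p = 0.00220).

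Secreted ligands and chromatin proteins were also among the higher genes. Pdgfc, a platelet-derived growth factor, was at 16.1 against 61.9 CPM and 5.69 against 48.0 CPM (log2 fold change 2.5, SE 0.34, adjusted p = 0.0102). It was the 1 stably higher gene among 32 tested genes of the FGF, PDGF, VEGF and EGF systems, of which Ret, Fgfr2 and Fgfr3 were the stably lower ones. The stably higher share of 3.125% was near the 2.51% of all genes, and the stably lower share was 9.375% against 2.21%. Angpt1, a ligand of the Tie2 receptor, picked out after its values were seen, was at 19.02 against 57.1 CPM and 36.5 against 139 CPM (adjusted p = 0.0169). The chromatin remodeller genes Chd7 and Smarca1 rose. Chd7 was at 0.614 against 5.23 CPM and 1.49 against 10.1 CPM, and Smarca1, chosen after the fact, at 2.26 against 9.74 CPM and 4.43 against 35.9 CPM. Their adjusted p were 0.0142 and 0.0102. Hectd2 and Usp13, a ubiquitin ligase and a deubiquitinase, Ms4a4d and Catsperd, a subunit of the sperm calcium channel, were also called higher, with 10 or more counts in all 4 libraries, and so was Apcdd1, a Wnt inhibitor of the cell membrane.

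Some genes were close to absent in one line. At 3 counts or fewer in both libraries of the lower line were 25 higher and 30 lower genes. 1500009L16Rik had 135 and 423 counts in shControl and 0 and 1 in shMLL1. With the 0 set to the floor of 3 counts it was 42.5-fold lower at day 0, and the counting interval reached log2 -5.09. Slc22a17, a receptor for lipocalin 2, had 31 and 343 counts against 2 and 2. Kcne4, a potassium channel subunit, had 31 and 95 counts against 0 and 1, and Hey2, a Notch target, 93 and 16 counts against 3 and 2. In the other direction, Cmpk2, a mitochondrial nucleotide kinase, had 0 and 2 counts in shControl and 217 and 29 in shMLL1. Thrb, thyroid hormone receptor β, had 1 and 2 counts against 17 and 132, and Lancl3 had 1 and 2 against 19 and 114. Of these 7 genes all but Hey2 were called.

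Rsad2 had the highest ratio of the set at each day, while most other interferon-stimulated genes were higher at day 0 alone. Rsad2 encodes viperin, an antiviral enzyme induced by interferon. It had 5 and 1 counts in shControl and 485 and 94 in shMLL1, which made the ratio 103 at day 0 and 117 at day 7, the latter with a counting interval of log2 4.36 to 12.2. It rose by 6.66 on the log2 scale (SE 0.56, adjusted p = 0.00119). The next gene tested on chromosome 12 is Cmpk2, described above. On a list of 40 interferon-stimulated genes, written with earlier results of these data known, every gene was above 0 at day 0, with log2 ratios from 0.28 to 6.68 and a median of 1.55. At day 7 the range was -2.08 to 6.88 and the median -0.09. Only Rsad2, Oas2 and Ifi27l2a were therefore in the set, and Rsad2 alone was called. The stably higher share of the list was 7.5%, against 2.51% of all genes. Oas2, an oligoadenylate synthetase, was at 14.6 against 164 CPM and 68.6 against 139 CPM. Among 9 tested oligoadenylate synthetases, a family looked at after its values were seen, Oas1g, Oas1h and Oasl1 were the other stably higher genes.

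The PYHIN genes, by contrast, were higher at both days along a whole gene cluster. This family, known for the interferon-inducible DNA sensors of the Ifi200 group, lies together on chromosome 1 between Aim2 (from 173350879) and Ifi205 (to 174031810). The cluster was examined after its values were seen. Of its 15 genes tested, 12 were stably higher (against 2.51% of all genes tested), 8 of them called, and none was lower. The other 3, Ifi214, Ifi213 and Gm18445, had 2 counts or fewer in both lines at day 0 and log2 ratios of 2.56, 1.68 and 3.45 at day 7. Ifi205 was at 0.258 against 4.75 CPM and 0.474 against 34.3 CPM (log2 fold change 5.33, SE 0.54, adjusted p = 0.00298). Mndal was at 13.0 against 51.5 CPM and 29.2 against 193 CPM (log2 fold change 2.36, SE 0.31, adjusted p = 0.00931). Aim2, the sensor of cytosolic DNA that assembles an inflammasome, was at 9.33 against 27.2 CPM and 10.5 against 26.5 CPM, and Ifi202b at 65.3 against 331 CPM and 115 against 289 CPM. Several of these genes are close copies of each other, and reads with a low mapping quality were dropped, so that values of single members are less certain than those of the cluster.

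**Figure D4:**
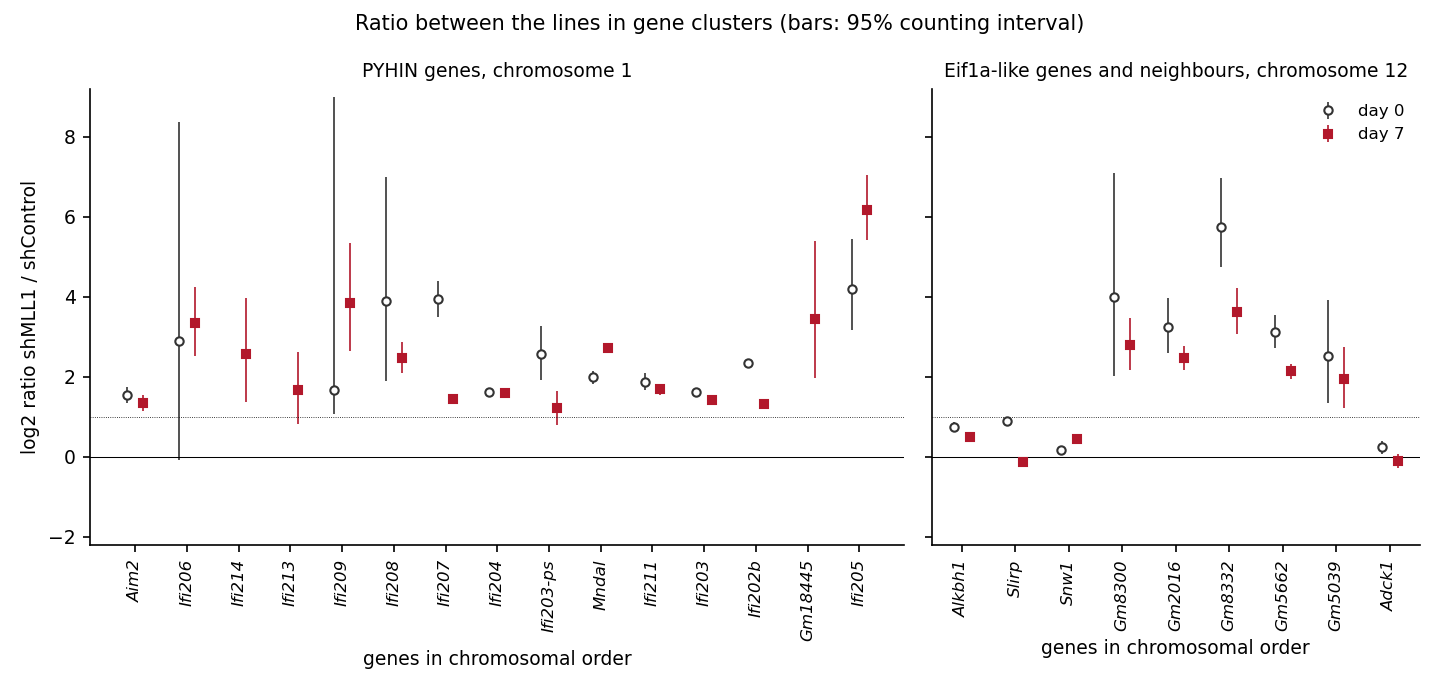
The log2 ratio of shMLL1 to shControl is shown for genes in their chromosomal order, at day 0 (open circles) and day 7 (red squares), with bars for the 95% counting interval, drawn to at most 9. On chromosome 1 every PYHIN gene with a ratio lies above 0, and on chromosome 12 the 5 Gm genes lie above their flanking genes Snw1 and Adck1.

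Promoter sequence could be looked up for 10 of the 12 stably higher PYHIN genes, in RefSeq promoters on GRCm38.p6 that run from 250 bases before to 50 bases after a gene start. They were searched on both strands for GAAANNGAAA, the letters common to interferon-stimulated response elements. Of the 10, Ifi205, Ifi206, Ifi207, Ifi208, Ifi211 and Mndal held it, and so did Rsad2, while Aim2, Ifi202b, Ifi203 and Ifi209 did not. The 2 genes of the cluster with a promoter that were not in the set, Ifi213 and Ifi214, held it as well, which makes 8 of 12 in the cluster. Several genes of the cluster are close copies of each other, so matches in these promoters are not separate occurrences. Of all 9960 promoters matched to protein-coding genes tested, 3.14% held it. Promoters were matched for 67.7% of the protein-coding higher genes and 71.3% of the lower ones, under the 80% needed, so no comparison of promoter content is drawn between the 745 genes and other genes, and the share over all promoters only says how common the letters are. The sequences below show where the element sits in Rsad2 and in 3 PYHIN genes called higher, with capitals marking GAAANNGAAA or its reverse complement.
Rsad2, chr12:26456403-26456702, minus strand: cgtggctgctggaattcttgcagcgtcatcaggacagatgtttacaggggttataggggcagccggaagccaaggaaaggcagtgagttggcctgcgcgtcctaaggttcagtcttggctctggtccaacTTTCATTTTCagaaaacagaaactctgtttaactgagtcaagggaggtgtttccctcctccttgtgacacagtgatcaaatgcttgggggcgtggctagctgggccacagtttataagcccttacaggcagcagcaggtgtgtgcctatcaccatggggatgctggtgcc
Ifi205, chr1:174031706-174032005, minus strand: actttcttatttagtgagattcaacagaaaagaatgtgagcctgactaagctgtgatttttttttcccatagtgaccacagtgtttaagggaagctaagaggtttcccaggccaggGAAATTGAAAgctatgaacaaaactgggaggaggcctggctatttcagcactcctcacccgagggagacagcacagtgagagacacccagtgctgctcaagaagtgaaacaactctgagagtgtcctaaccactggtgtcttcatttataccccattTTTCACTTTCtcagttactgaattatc
Mndal, chr1:173880138-173880437, minus strand: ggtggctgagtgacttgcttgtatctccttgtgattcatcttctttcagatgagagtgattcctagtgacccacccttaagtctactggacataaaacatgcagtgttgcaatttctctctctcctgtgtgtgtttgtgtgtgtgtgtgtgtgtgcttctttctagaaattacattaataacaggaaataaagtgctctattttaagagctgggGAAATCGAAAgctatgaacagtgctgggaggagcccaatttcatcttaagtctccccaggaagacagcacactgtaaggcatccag
Ifi208, chr1:173673415-173673714, plus strand: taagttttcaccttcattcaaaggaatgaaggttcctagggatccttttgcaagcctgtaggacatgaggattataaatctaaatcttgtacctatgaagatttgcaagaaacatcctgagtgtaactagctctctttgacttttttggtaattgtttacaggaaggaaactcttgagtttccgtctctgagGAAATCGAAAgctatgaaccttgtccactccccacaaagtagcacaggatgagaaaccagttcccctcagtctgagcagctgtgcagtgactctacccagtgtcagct
The first run of capitals begins 36 bases before the RefSeq start in Mndal, 58 before it in Ifi208, 120 in Rsad2 and 134 in Ifi205. A match of letters is a description of the sequence and not a sign of binding.

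Other families and neighbouring genes were looked at after their values were seen. Sp100, Sp110 and Sp140, nuclear body proteins encoded side by side on chromosome 1, were all stably higher, and Sp100 was called, with 5.20 against 68.1 CPM at day 0 and 9.21 against 32.3 CPM at day 7 (adjusted p = 0.0168). On chromosome 12, between Snw1 and Adck1, the 5 genes Gm8300, Gm2016, Gm8332, Gm5662 and Gm5039 were all stably higher and all but Gm5039 were called. Gm8332 was the most different of them, with 8 and 29 counts against 404 and 284. Their flanking genes Snw1 and Adck1 had log2 ratios between -0.11 and 0.44. These Gm genes resemble each other, so that the split of reads between them is uncertain.

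Histone cluster genes were mostly on the higher side. Of 31 tested, 11 were stably higher and none was stably lower, 25 lay above 0 at both days and none below it at both days, but only the linker histone gene Hist1h1d was called, at 4.52 against 20.5 CPM and 5.45 against 15.6 CPM (adjusted p = 0.0289). Of all 15797 genes tested, 2.51% were stably higher, 3764 lay above 0 at both days and 4855 below it. Of 30 tested clustered protocadherins, which lie on chromosome 18, 4 were stably lower, with a median of -1.37 at day 0 and 0.11 at day 7. That was 13.3%, against 2.21% of all genes.

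Smaller groups of genes had members on both sides. Of 31 axon guidance genes, Slit3, Sema3a and Sema3d were stably higher and Sema3b and Efnb1 stably lower. These were 9.68% and 6.45%, against 2.51% and 2.21% of all genes. Slit3 (2.87 against 7.62 and 2.2 against 21.01 CPM) was called higher and Sema3b (34.5 against 6.26 and 45.4 against 16.1 CPM) lower. Of 30 chemokine, cytokine and receptor genes, Il1rl1 and Ccl8 were stably higher and Il1rn and Cxcl12 stably lower. The share was 6.67% on either side, against 2.51% stably higher and 2.21% stably lower among all genes. Ccl8 had 11 and 2 counts in shControl and 214 and 4 in shMLL1. Its counting interval at day 7 was log2 -1.48 to 4.79, and it was not called. Il1rl1, the receptor for interleukin 33, was at 8.88 against 90.8 CPM and 1.66 against 4.52 CPM (adjusted p = 0.0283). Il1rn, the interleukin 1 receptor antagonist, was at 2086 against 179 CPM and 2193 against 688 CPM (adjusted p = 0.0497). Cxcl12, a chemokine of stromal cells, was at 1323 against 464 CPM and 6995 against 2512 CPM, about 2.8-fold lower at both days, and was not called (adjusted p = 0.180). Of 14 retinoid genes Aldh1a7 was called higher and Rarres2 lower, and of 15 ion channel genes Cacnb4 was stably higher and Trpv4 and Kcne4 were among those called lower. The stably higher and lower shares were 7.14% and 7.14% for retinoid genes and 6.67% and 20.0% for ion channels.

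On the lower side alone were the imprinted genes Ndn and Impact among 17 tested, the complement genes C3 and C4b among 16, Hey2 and the Hedgehog co-receptor gene Boc among 20 of the Notch and Hedgehog pathways, Myl9 among 12 smooth muscle genes and Gstm1 among 24 genes of the NRF2 and glutathione group. In the NRF2 and glutathione group that was 4.17%, near the 2.21% stably lower among all genes. The stably lower share was 11.8% for imprinted genes, 12.5% for complement genes, 10.0% for Notch and Hedgehog genes and 8.33% for smooth muscle genes. Ndn (necdin) was at 20.8 against 1.85 CPM and 10.2 against 1.78 CPM (log2 fold change -3.02, SE 0.40, adjusted p = 0.00931). Boc was called too, with 96.0 against 12.8 CPM and 188 against 62.7 CPM (adjusted p = 0.0176), and C4b, with 10.95 against 4.68 CPM and 340 against 69.5 CPM (adjusted p = 0.0349). None of 30 S phase genes, 30 G2/M genes or 14 genes of the IGF system was stably different. Median log2 ratios were 0.07 and -0.40 for S phase, 0.09 and -0.56 for G2/M, and -0.31 and -0.33 for the IGF system.

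**Figure D5:**
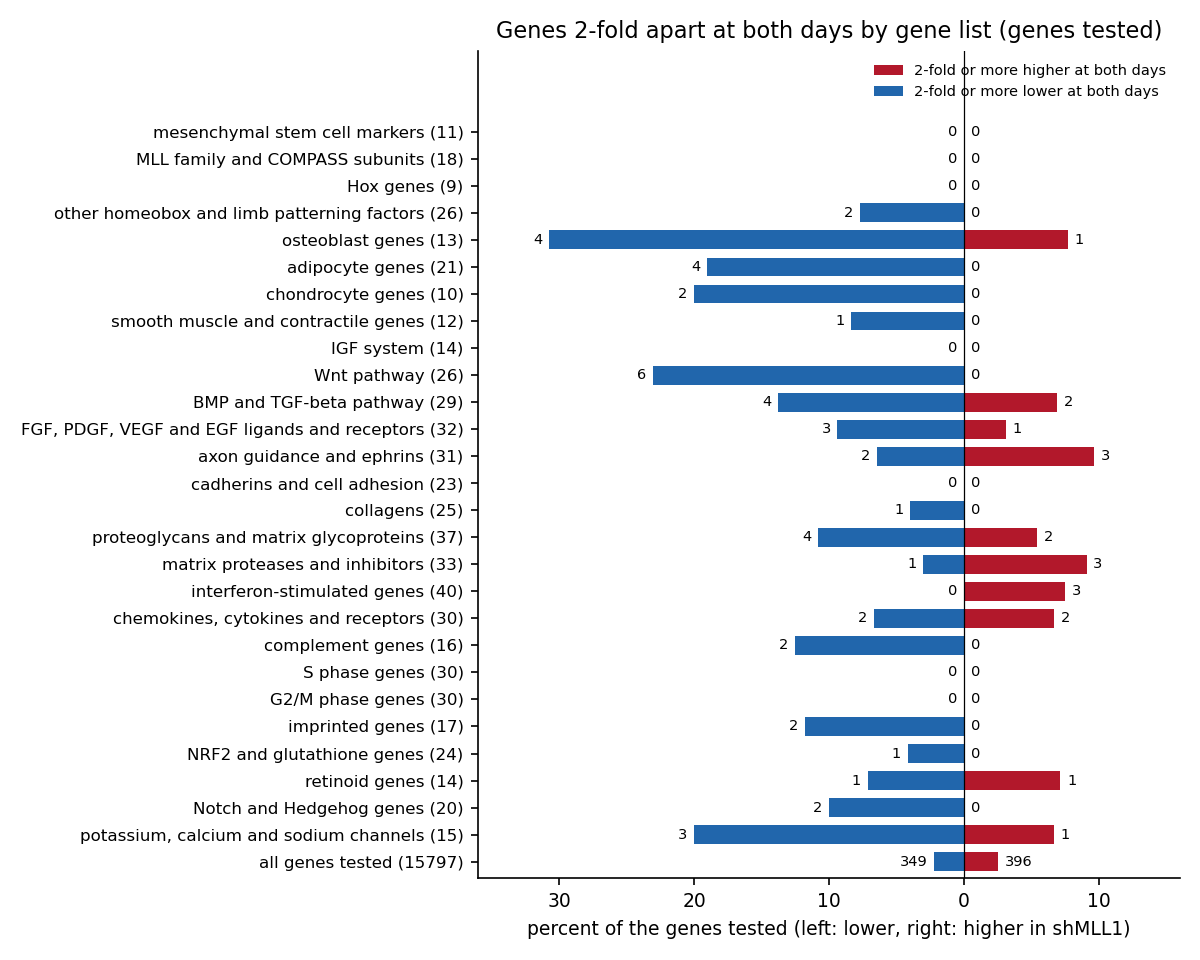
Bars give the percent of the tested genes of each list that were at least 2-fold higher (red, right) or lower (blue, left) in shMLL1 at both days, with the number of genes at the end of each bar and the genes tested in brackets. Osteoblast genes have 4 lower genes among 13, and the bottom bars give all 15797 genes, with 396 higher and 349 lower.

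Higher genes included more noncoding genes than lower genes did. Protein-coding genes were 64.9% of the higher genes and 88.0% of the lower ones, against 80.5% of all genes tested. The higher genes held 34 antisense genes against 8 among the lower, of 598 tested, and 28 against 2 of the unreviewed class TEC, of 376 tested. They held 25 lincRNAs against 13, of 497 tested, and 17 processed pseudogenes against 5, of 873 tested. Antisense genes took 0.156% and 0.335% of all counts in shControl at day 0 and day 7 and 0.179% and 0.455% in shMLL1, and TEC genes 0.0446% and 0.101% against 0.0601% and 0.149%. The part of these shares in the higher genes was not tested, and the strand setting of the counting is not given in the sources used here, so reads of an antisense gene and of the gene opposite cannot be told apart. The lincRNA Gm49083, with 10 and 137 counts against 58 and 690, and the brain cytoplasmic RNA gene Bc1, with 169 and 346 against 852 and 761, were called higher.

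Some members of the same direction lay near each other. Another stably higher gene started within 100 kb of 16.7% of the higher genes, against 5.58% of all genes tested, and another stably lower gene within 100 kb of 12.9% of the lower genes, against 5.84% of all. Neighbouring genes share clusters of related sequence and, without strand, reads, so these shares are a description. Chromosome 1 held 52 of the 396 higher genes, 13.1% of them, against 5.86% of all genes tested, and the PYHIN and Sp100 genes make up 15 of the 52. The lower genes were most frequent on chromosome 10, with 26 of 769 genes tested.

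shNFIB cells had levels on either side of those of shControl for these genes, and as both knockdown lines share the shControl libraries no overlap between them is given. Naalad2 (70.6 and 58.6 CPM), Tbx1 (21.6 and 29.0 CPM) and Six2 (53.0 and 20.4 CPM) stayed in shNFIB within 2-fold of shControl at both days. Epas1 (0.0980 and 1.92 CPM), Fzd9 (0.425 and 0.803 CPM) and Col9a1 (0 and 0 counts) were as low in shNFIB as in shMLL1 or lower. Gpnmb was at 0.0653 and 1.33 CPM in shNFIB, below shControl where shMLL1 was above it, and Ndn was at 66.1 and 41.0 CPM, above shControl where shMLL1 was below it. Gm2115 was at 69.8 and 87.3 CPM in shNFIB, against 13.7 and 24.2 CPM in shMLL1 and 1.74 and 2.98 CPM in shControl. Of the 12 stably higher PYHIN genes, all but Aim2 were also above shControl in shNFIB at day 7. Ifi207 was then at 777 CPM in shNFIB, 571 in shMLL1 and 210 in shControl, Ifi204 at 427, 364 and 121 CPM, and Ifi203 at 333.5, 183 and 68.0 CPM. At day 0 shNFIB had 2.65, 40.9 and 45.1 CPM of these 3 genes, against 1.49, 34.4 and 48.6 CPM in shControl. Aim2 was at 0.653 and 1.68 CPM in shNFIB, below both other lines.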

How the data were processed

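RNA-seq was done on C3H10T1/2 cells carrying shControl, shNFIB or shMLL1 at day 0 and day 7, with 1 library for each condition. The deposited values are raw read counts per gene. To make them the authors trimmed paired 100 bp reads with Trimmomatic 0.39, aligned them to GRCm38 with HISAT2 2.2.1, processed alignments with SAMtools 1.12, kept those with a mapping quality over 30, removed duplicates and counted with HTSeq 0.11.1. The annotation release and the strand setting are not given in the sources used here. Of 55401 genes, 55141 matched GENCODE M21, from which positions and gene types were taken. No entry of the count table lacked a gene, and 0 columns of values went unmapped.

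Genes with 20 or more counts in at least 1 of the 4 shControl and shMLL1 libraries were tested with edgeR 4.0.16 (R 4.3.3), with TMM scaling, day as a term, the quasi-likelihood test and Benjamini-Hochberg adjustment over 15797 genes, at an adjusted p under 0.05. The 2 days stand in for replicates, since nothing in the labels gives separate cultures, so p-values cover no spread between cultures. edgeR's fit draws the error of a gene toward that of the other genes tested. The p-values and SE therefore do not rest on the gene's own spread between these libraries alone. SE is the log2 fold change divided by the square root of F. CPM are TMM-scaled counts per 1000000 counts. A library at 0 was set to the floor of 3 counts for the ratio of a day. The 95% counting intervals are Clopper-Pearson intervals (scipy 1.17.1) and cover counting error only. The 4 libraries held 21608680 to 32662704 counts.

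The members and lists were chosen with earlier results of these data known. Genes were named by a rule: the 10 smallest p among genes called, the 12 higher and 12 lower protein-coding members with the largest smaller ratio and 10 or more counts in all 4 libraries, 6 on each side with 3 counts or fewer in one line, Kmt2a, Nfib and genes that the study follows, members of the lists, and genes at the 2-fold edge. Further families and genes were chosen after their values were seen, and are given as such. The alternatives were other scalings, thinning, other count minimums and folds, DESeq2 1.42.0, all 6 libraries, no day term, protein-coding genes alone and leaving out each library. The fit and the member rule were tested on simulated data. Figures were drawn with matplotlib 3.10.9. Some results are not reported here.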

Additional observations from a re-analysis of the deposited data

Results flagged for a closer look

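Some gene groups were on opposite sides of 0 at the 2 days, which the rule for stable differences leaves out. With 1 library per line and day the difference between days was not tested. The values are the median log2 ratio of shMLL1 to shControl at day 7 minus that at day 0. Groups with a positive value, lower in shMLL1 at day 0 and higher at day 7, were proteoglycans and matrix glycoproteins at 1.07, collagens at 1.05, imprinted genes at 0.88, mesenchymal stem cell markers at 0.72, Notch and Hedgehog genes at 0.54, MLL family and COMPASS subunits at 0.48, retinoid genes at 0.47, matrix proteases and inhibitors at 0.29, and the ligands and receptors of the FGF, PDGF, VEGF and EGF systems at 0.15. Groups with a negative value, higher at day 0 and lower at day 7, were interferon-stimulated genes at -1.64, chemokines, cytokines and receptors at -1.34, NRF2 and glutathione genes at -0.90, G2/M genes at -0.65 and S phase genes at -0.47. Setdb1, a histone H3 lysine 9 methyltransferase gene, had 0.59, with 54.1 against 50.4 CPM at day 0 and 66.2 against 92.8 CPM at day 7.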

How the results depend on the processing

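Against 93 genes called higher and 127 called lower, counts thinned to the smallest library gave 7 and 10, a minimum of 10 counts in all 4 libraries 53 and 74, every gene with a count 336 and 404, DESeq2's test 161 and 199, and all 6 libraries 2 and 3. DESeq2's size factors gave 71 and 93, and total counts alone 106 and 121. Leaving out each library in turn from the fit of 6 gave 0 to 205 higher and 2 to 238 lower. In total these were 12 without shControl day 0 (8 lower), 2 without shControl day 7, 148 without shMLL1 day 0 (59 lower), 443 without shMLL1 day 7, 222 without shNFIB day 0 and 219 without shNFIB day 7; a line left with 1 library is assumed to vary like the others. No paired analysis was possible because each line and day has 1 library and the conditions share a single replicate number. The day took the place of a block, and with no replicate block (no day term) edgeR called 0 and 0, with 113 higher and 139 lower at an unadjusted p under 0.05.

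Of the 396 higher and 349 lower genes at least 2-fold apart, a minimum of 50 counts left 254 higher genes, a minimum of 100 counts 178 and 227, and protein-coding genes alone 257 higher genes. A 1.5-fold limit gave 841 and 816, a 4-fold limit 96 and 98, and any size in the same direction 3764 and 4855. The 111 named genes include genes with no call to lose. Of the 111, 63 were no longer called with all 6 libraries, 54 after thinning and 12 with DESeq2's size factors. Tbx1, Tspan18, Naalad2 and Gm2115 were the only named genes still called with all 6 libraries. None changed direction in these settings. Day 0 alone and day 7 alone each moved the value of 52 named genes. Setdb1 lay on opposite sides of 0, with log2 ratios of -0.10 at day 0 and 0.49 at day 7. The median log2 fold change of all genes was -0.03 with TMM, -0.01 with DESeq2's size factors and 0.02 with total counts. Depth limits genes near the floor of 3 counts, 0.0969 to 0.127 CPM.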
